A study of Mus musculus with 8 samples.

Results

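The 38 coding genes described here belong to the 4 Hox clusters of the mouse and were chosen by symbol (Hoxa, Hoxb, Hoxc or Hoxd followed by a paralog number) and protein-coding class, from the 55471 gene identifiers of the deposited tables. Expression was not used to choose them. RNA was sequenced from 8 libraries of motor neurons made from the HBG3 line of mouse embryonic stem cells, which carries green fluorescent protein under the Hb9 promoter as a motor neuron reporter. All libraries came from these cells, harvested 3 days after plating, and there were 2 libraries in each of 4 groups: Input (RNA before capture), and pull-downs with the ODD probes, the EVEN probes or the LacZ probes. ODD and EVEN are probe sets of 20 nt against Lhx1os, a long noncoding RNA, and LacZ probes target a bacterial mRNA and were the negative control. The labels name the replicate as a batch and the design describes 2 independent experiments, so experiment 1 and experiment 2 below each hold 1 library of every group. The cells are a culture derived from 1 stem cell line, and the labels describe no sorting for the reporter.

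Hox genes encode homeodomain transcription factors that pattern the body from head to tail. Genes of the same paralog number in different clusters descend from 1 ancestral gene, and within a cluster low numbers are expressed from the hindbrain or neck backwards while high numbers are expressed in lower trunk and tail. In the spinal cord they assign motor neurons to columns and pools: Hoxa5 and Hoxc5 act in phrenic motor neurons of the neck, Hoxc6 in limb-level motor neurons of the forelimb, Hoxc9 in the thorax, and the Hox10 genes in the hindlimb region. Retinoic acid is known to activate the low-numbered genes, and CDX factors, Wnt and FGF signals the middle and high-numbered ones. HOX proteins bind DNA together with the cofactors PBX, MEIS and PKNOX.

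In GRCm38 the 10 Hoxa genes reported lie on chromosome 6 between 52162417 and 52260880 on the minus strand. The 10 Hoxb genes lie on chromosome 11 between 96194316 and 96368256, the 9 Hoxc genes on chromosome 15 between 102921103 and 103036852, and the 9 Hoxd genes on chromosome 2 between 74668310 and 74765142, all on the plus strand. Their transcripts overlap in several places. Of the exon bases of Hoxd3 and Hoxd4, 62.3% and 52.3% are shared with each other or with Gm28230 on the same strand. The antisense gene Hoxb3os covers 52.9% of the exon bases of Hoxb3 and 27.3% of those of Hoxb2. Antisense transcripts cover 25.4% of Hoxa3, 16% of Hoxa4 and 20.4% of Hoxa7, and Gm28308 shares 15.0% of Hoxa2. The kit marks the strand, but the sources used here do not say whether counting used it, and the values of these genes are uncertain to that extent.

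The promoters of 4 genes are shown as examples of genes called between the experiments described below: the gene with the largest fitted difference in each direction (Hoxa7 lower and Hoxd3 higher in experiment 2) and an abundant gene with a smaller one in each (Hoxb8 lower and Hoxb4 higher). They were chosen after these values were seen. Each runs 5′ to 3′ on the strand of the gene from 250 bases before to 50 bases after the start in RefSeq (GRCm38.p6). Capitals mark TTTATG or its reverse complement, the core bound by CDX homeodomain proteins, and TGATNNAT or its reverse complement, the composite element bound by PBX with HOX. Hoxb8 is chr11:96281655-96281954, Hoxa7 chr6:52218524-52218823 (minus strand), Hoxd3 chr2:74711743-74712042 and Hoxb4 chr11:96318017-96318316.
Hoxb8: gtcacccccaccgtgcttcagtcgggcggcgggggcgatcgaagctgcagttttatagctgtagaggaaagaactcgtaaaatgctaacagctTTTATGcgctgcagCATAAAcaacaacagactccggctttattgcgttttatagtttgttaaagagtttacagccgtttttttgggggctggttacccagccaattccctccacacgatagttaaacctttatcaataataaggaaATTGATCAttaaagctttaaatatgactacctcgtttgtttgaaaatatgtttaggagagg
Hoxa7: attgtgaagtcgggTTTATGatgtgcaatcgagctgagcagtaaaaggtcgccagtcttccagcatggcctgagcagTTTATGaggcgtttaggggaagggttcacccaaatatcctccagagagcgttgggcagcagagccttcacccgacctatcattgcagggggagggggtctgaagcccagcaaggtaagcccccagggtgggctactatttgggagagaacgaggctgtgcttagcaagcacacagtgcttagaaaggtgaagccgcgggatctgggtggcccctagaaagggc
Hoxd3: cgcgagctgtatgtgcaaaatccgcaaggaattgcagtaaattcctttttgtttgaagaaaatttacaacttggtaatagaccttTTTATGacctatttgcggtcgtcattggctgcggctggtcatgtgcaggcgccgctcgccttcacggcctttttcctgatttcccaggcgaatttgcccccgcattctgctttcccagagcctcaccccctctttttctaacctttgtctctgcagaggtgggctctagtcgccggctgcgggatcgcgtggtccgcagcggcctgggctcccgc
Hoxb4: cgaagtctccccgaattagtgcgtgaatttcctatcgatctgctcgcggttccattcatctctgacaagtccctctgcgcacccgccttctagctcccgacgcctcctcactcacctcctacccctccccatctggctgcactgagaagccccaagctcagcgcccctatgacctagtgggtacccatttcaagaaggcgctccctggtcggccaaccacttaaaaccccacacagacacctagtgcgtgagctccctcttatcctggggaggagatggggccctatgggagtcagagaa

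Promoters of 22 of the 38 genes were matched in the RefSeq table, 24 promoters in all. A Hox gene was counted if any of its promoters held the letters, while the shares of all promoters are per promoter. TTTATG was present on either strand in 5 of these 22 genes (Hoxa7, Hoxb8, Hoxd3, Hoxd4 and Hoxd11), against 11.9% of all 32851 promoters of the same length. Hoxb8 and Hoxa7 each held it 2 times and Hoxd3 held it 1 time. TGATNNAT was present in 4 of the 22 (Hoxa2, Hoxb1, Hoxb8 and Hoxd11), against 8.85% of all promoters. The Hoxb4 window held neither string. In the printed Hoxb8 window, which held both, their letters did not overlap. A match is a description of the letters and no measure of binding, and its part in any difference between libraries was not tested.

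The libraries held between 7632775 (LacZ, experiment 1) and 24628435 counts (Input, experiment 1). The Hox genes took 0.0985% and 0.124% of the Input counts and between 0.0827% and 0.0891% of the pull-down counts. Markers of the labelled cell type were present in Input: Mnx1, the gene behind the Hb9 reporter, had 21.2 and 30.7 FPKM (counts scaled to exon length in kilobases and to the library total), and the acetylcholine synthesis gene Chat had 2.69 and 7.77. Neural progenitor and glial genes were present too, with Sox2 at 149 and 95.1 and Olig2 at 144 and 53.9 FPKM. The pluripotency genes Pou5f1 and Dppa5a had 0 counts in all 8 libraries. In such bulk libraries fewer cells of a type and less RNA per cell cannot be told apart.

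Input shows the Hox code of the culture. Of the 38 genes, 19 had a mean Input level over 1 FPKM and 12 over 10 FPKM, and all of these carry paralog numbers from 2 to 9. The Hoxb cluster supplied 70.0% and 67.1% of the Hox counts in the 2 Input libraries, the Hoxa cluster 15.0% and 16.9%, the Hoxc cluster 13% and 13.8%, and the Hoxd cluster 1.97% and 2.21%. The order of the clusters was the same in all 6 pull-down libraries.

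The top of the order was a block of 7 genes whose neighbours did not separate. Hoxb8, a trunk gene, had 58.2 and 58.1 FPKM in the 2 Input libraries (58.1 ± 0.0228, SD, n = 2), and Hoxb5 had 41.2 and 68.4 (54.8 ± 19.2). Hoxa5, known for its role in phrenic motor neurons, had 42.3 and 48.4. The other 4 were Hoxb3, Hoxb6, Hoxb4 and Hoxc4, with means of 42.4, 37.6, 37.5 and 35.8 FPKM. Both values of Hoxc4, 30.4 and 41.1, were above both values of the next gene, Hoxb2, a hindbrain gene with 17.1 and 24.1. Hoxc5, the phrenic partner of Hoxa5, followed at 14.4 and 20.0. Hoxa2 (12.4 and 18) and Hoxa4 (10.3 and 20.1) both averaged 15.2, and Hoxb7 had 14.1 and 13.4. Within this block of 5 genes neighbours overlapped as well, and all were above Hoxa3.

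Below a further gap came genes under 10 FPKM. Hoxa3 had 4.27 and 8.84 FPKM in Input, and Hoxb9, the highest paralog number among the genes tested, had 4.83 and 4.05. Hoxd3 had 1.93 and 3.78, and Hoxd4 had 2.67 and 2.71. The exon bases that these 2 Hoxd genes share on the same strand leave both levels uncertain. Hoxa6 had 2.37 and 0.948 FPKM and Hoxc6, the forelimb-level motor neuron gene, 2.07 and 1.17. Hoxd8 was at 1.07 and 1.08, and Hoxa7 at 0.734 and 0.22. Across the 28 genes with any Input count, 19 of 27 pairs of neighbours in the order overlapped between the 2 libraries. The order thus separates blocks of genes and not neighbours within them. Genes further apart in a block could separate: both values of Hoxb8 were above both of Hoxa5, and both of Hoxb2 above both of Hoxb7.

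**Figure D1:**
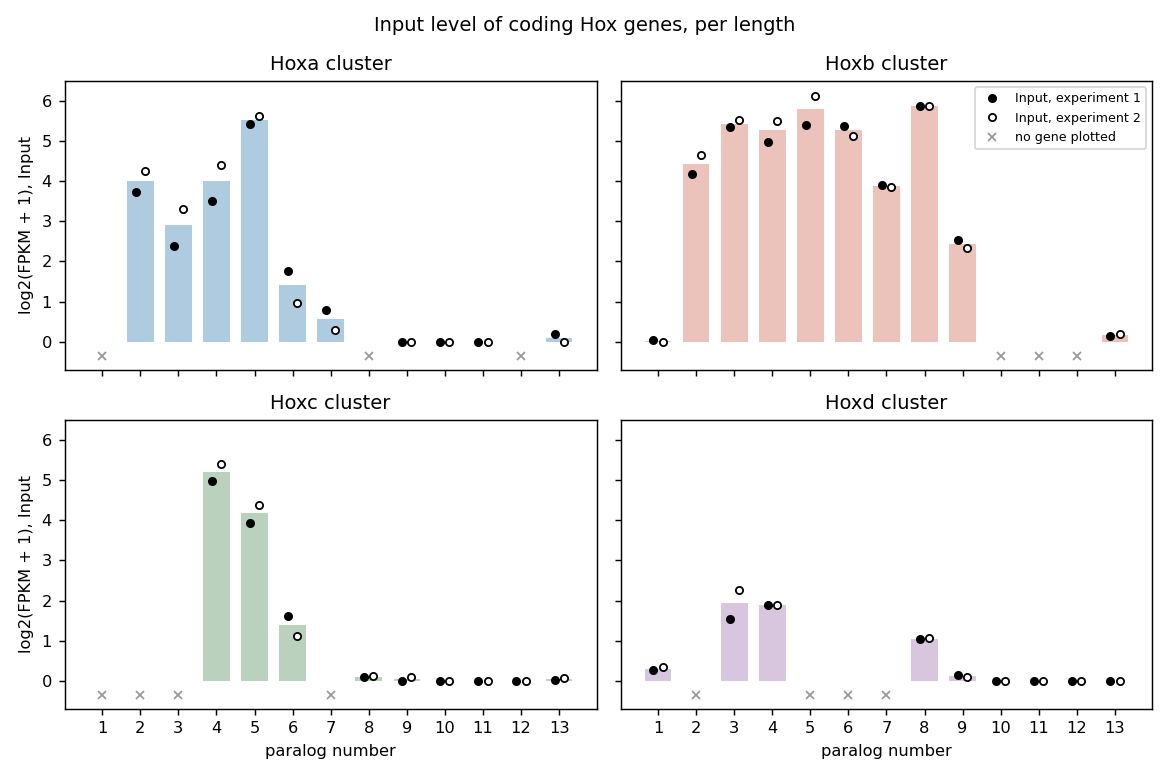
Level of each coding Hox gene in Input, on the scale of log2(FPKM + 1), by paralog number (x axis) in the 4 clusters. Bars are the mean of the 2 Input libraries, filled and open circles are experiments 1 and 2, and crosses mark numbers for which no gene is plotted; levels are high for Hoxb2 to Hoxb8, Hoxa2 to Hoxa5, Hoxc4 and Hoxc5, and near 0 for every gene numbered 10 to 13.

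A total of 20 of the 38 genes passed the filter on low counts used for testing, and 18 did not. The 12 genes numbered 10 to 13, which belong to hindlimb and tail levels, had 16 and 8 counts in all in the 2 Input libraries. The 8 genes with 0 counts in every library were Hoxa9, Hoxa10, Hoxa11, Hoxc10, Hoxc12, Hoxd10, Hoxd11 and Hoxd12. For a gene with 0 counts in Input, 3 counts of the 45143936 Input counts set an upper limit of 0.0665 CPM (counts scaled to the library total), which covers counting error only. Hoxc9, the thoracic motor neuron gene, had 0 and 3 counts in Input and 6 counts in all 8 libraries. Hoxc8, which acts in forelimb motor pools, had 4 and 5 in Input and 14 in all.

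Counts of the remaining low genes were as follows. Hoxd1 had 43 counts over the 8 libraries, with 9 and 10 in Input. Hoxb13 had 26, Hoxd9 18, Hoxa13 14 and Hoxb1 9. Hoxb1 marks the facial motor neuron segment of the hindbrain, and it had 2 and 0 counts in Input. Hoxc13 had 4 counts in all, and Hoxc11 and Hoxd13 had 1 count each, in an ODD library of experiment 1. Hoxc10 shares 166 exon bases with Hoxc5 on the same strand, and no count fell to it.

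Hox genes differed between the 2 experiments, and the differences followed the paralog number. Genes numbered 6 to 9 were lower in experiment 2 (median log2 difference -0.59 over 8 genes), and genes numbered 1 to 5 were slightly higher (0.17 over 12 genes). With edgeR's quasi-likelihood test, group as a term and Benjamini-Hochberg adjustment over 16524 genes, 9 of the 20 genes tested passed an adjusted p of 0.05, 3 higher and 6 lower in experiment 2. Of all genes, 27.4% passed, 15.0% higher and 12.4% lower, and of protein-coding genes 30.2% passed. The 3 higher Hox genes are thus at the share of all genes. The 6 lower ones are above it, and all 6 carry numbers 6 to 9. The split at paralog 5 was drawn with results of these data known, and it is given as a description without a test.

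Hoxa7, a trunk gene (ENSMUSG00000038236, chromosome 6, 52214491 to 52221854, minus strand), had the largest difference. Values below are CPM on TMM-scaled library sizes, in the order Input, LacZ, ODD, EVEN. Hoxa7 had 2.14, 1.54, 1.53 and 1.44 CPM in experiment 1 and 0.632, 0.348, 0.384 and 0.628 CPM in experiment 2. All libraries of experiment 1 were above all of experiment 2, and the ratio was between 2.29-fold and 4.44-fold. The fitted log2 difference was -1.72 (SE 0.279, adjusted p = 0.00449). Its neighbour Hoxa6, a forelimb-level gene, had 2.10, 2.06, 0.964 and 0.845 CPM in experiment 1 and 0.827, 0.608, 0.672 and 0.359 in experiment 2. The experiments did not overlap here either, though the highest value of experiment 2 was just under the lowest of experiment 1 (log2 difference -1.25, SE 0.291, adjusted p = 0.0187). Both genes are low in every library, at 0.348 to 2.14 and 0.359 to 2.10 CPM.

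The 4 Hoxb genes numbered 6 to 9 all passed the test in the same direction. Hoxb6 had 81.4, 73.4, 78.9 and 76.1 CPM in experiment 1 and 67.3, 46.2, 54.3 and 55.9 in experiment 2, with no overlap (log2 difference -0.48, SE 0.0908, adjusted p = 0.00861). Hoxb8 (ENSMUSG00000056648, chromosome 11, 96281905 to 96285315, plus strand) had 155, 126, 116 and 122 CPM in experiment 1 and 153, 79.2, 80.7 and 88.5 in experiment 2. Its 2 Input libraries were almost level, and the difference lay in the pull-downs, where each library of experiment 2 was below its partner by 1.38-fold to 1.59-fold (fitted log2 difference -0.41, SE 0.115, adjusted p = 0.0342). Hoxb7 had 22.1, 19.7, 17.7 and 20.4 CPM against 20.6, 9.21, 8.64 and 16, also with Input nearly level (log2 difference -0.61, SE 0.185, adjusted p = 0.046). Hoxb9 had 12.6, 19.2, 11.2 and 9.04 CPM against 10.4, 7.39, 7.20 and 6.46 (log2 difference -0.68, SE 0.189, adjusted p = 0.0349). For Hoxb9 the LacZ library of experiment 1 stood highest, and the experiments overlapped.

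In the Hoxc and Hoxd clusters the genes of these numbers did not pass. Hoxc6 had 5.06, 2.70, 3.78 and 4.73 CPM in experiment 1 and 2.82, 2.69, 2.50 and 3.05 in experiment 2 (log2 difference -0.57, SE 0.19, adjusted p = 0.0626). It was lower in experiment 2 in every group, by almost nothing in LacZ. Hoxd8 had 2.96, 3.48, 4.02 and 3.21 CPM against 2.97, 2.78, 3.07 and 2.24 (log2 difference -0.28, SE 0.178, adjusted p = 0.275). Of the 8 genes numbered 6 to 9, all had a negative fitted difference and 7 were lower in experiment 2 in all 4 groups, Hoxd8 being the exception.

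The opposite direction was led by Hoxd3, a gene of the neck region (ENSMUSG00000079277, chromosome 2, 74711927 to 74748442, plus strand). It had 8.19, 10.7, 11.6 and 9.72 CPM in experiment 1 and 15.8, 16.6, 17.4 and 16.1 in experiment 2. The experiments did not overlap, and the ratio was between 1.5-fold and 1.93-fold in the 4 groups (log2 difference 0.73, SE 0.113, adjusted p = 0.00379). Hoxd4, which shares exon bases with it, had 7.99, 10.6, 9.40 and 11.8 CPM against 7.98, 9.30, 8.35 and 8.26, with a log2 difference of -0.21 (SE 0.131, adjusted p = 0.263). Of these 2 overlapping genes only Hoxd3 passed the test.

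The paralog 4 genes of the Hoxa and Hoxb clusters, which mark hindbrain and neck levels, also rose. Hoxb4 (ENSMUSG00000038692, chromosome 11, 96318267 to 96321638, plus strand) had 79.0, 74.8, 83.1 and 84.9 CPM in experiment 1 and 114, 85.8, 97.1 and 113 in experiment 2. Every library of experiment 2 was above every library of experiment 1 (log2 difference 0.35, SE 0.0889, adjusted p = 0.0264). Hoxa4 had 16.6, 13.4, 14.1 and 13.8 CPM against 32.0, 17.4, 17.2 and 16.3 (log2 difference 0.48, SE 0.143, adjusted p = 0.0421). The Input library of experiment 2 was nearly 2-fold above that of experiment 1 for Hoxa4, while the pull-downs differed by 1.19-fold to 1.30-fold. Hoxc4 had 79.2, 63.7, 72.3 and 66.8 CPM against 105, 58.7, 61.0 and 66.3, and its fitted log2 difference was 0.01 (SE 0.118, adjusted p = 0.941).

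The other genes of low number did not pass the test. Hoxb5 had 116, 102, 90.9 and 92.5 CPM in experiment 1 and 190, 109, 108 and 115 in experiment 2 (log2 difference 0.34, SE 0.111, adjusted p = 0.0564). Hoxc5 had 45.0, 36.7, 37.4 and 36.9 against 61.7, 41.1, 41.7 and 39.7 (0.22, SE 0.0937, adjusted p = 0.115). Both were higher in experiment 2 in all 4 groups, most of all in Input. Hoxa5, the other phrenic gene, had 80.5, 79.8, 79.4 and 72.3 CPM against 90.7, 57.6, 54.6 and 68.7, higher in Input and lower in the pull-downs of experiment 2. Hoxa3 had 26.1, 18.2, 21.8 and 24.3 CPM against 53.1, 25.3, 23.6 and 25.5, with an Input ratio of 2.04-fold (log2 difference 0.44, SE 0.169, adjusted p = 0.0929).

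The remaining 3 genes of low number were closer to level. Hoxa2 had 22.4, 20.2, 19.4 and 23.6 CPM in experiment 1 and 32.0, 18.2, 19.7 and 21.9 in experiment 2. Hoxb2 had 60.4, 49.2, 58.6 and 57.6 against 83.8, 53.8, 56.6 and 54.8. In both hindbrain genes only the Input library of experiment 2 stood apart from the rest. Hoxb3 had 172, 147, 143 and 154 CPM against 191, 160, 159 and 145, and its log2 difference was 0.08 (SE 0.0827, adjusted p = 0.487).

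**Figure D2:**
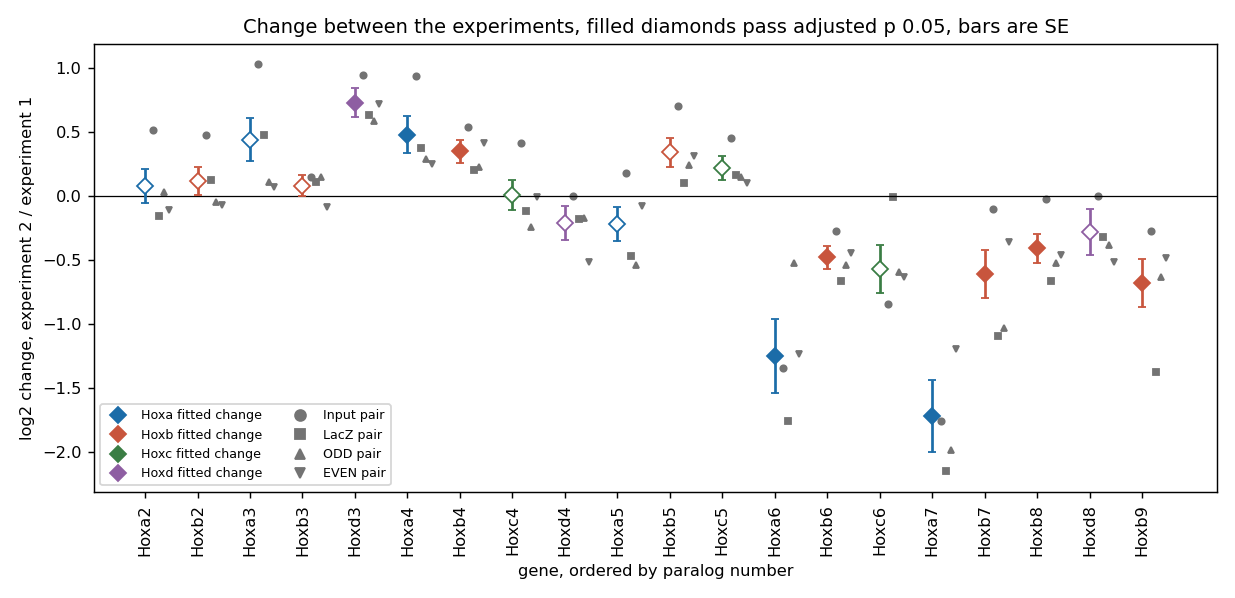
Log2 difference between experiment 2 and experiment 1 (y axis) for the 20 Hox genes tested, ordered by paralog number. Diamonds are the fitted difference with its SE, filled where the adjusted p is at most 0.05, and grey marks are the ratio of the 2 libraries of each group; all 8 genes numbered 6 to 9 lie below 0, and 10 of the 12 genes numbered 1 to 5 lie above it.

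**Figure D3:**
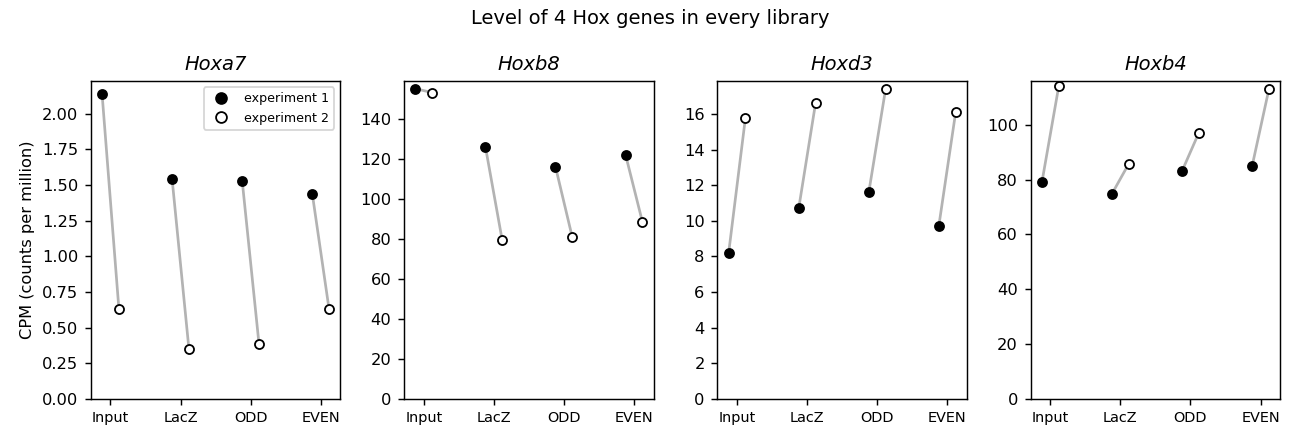
Level in every library (y axis, CPM from 0) of the 4 genes whose promoters are printed. Lines join the libraries of experiment 1 (filled) and experiment 2 (open) within a group; Hoxa7 and Hoxb8 are lower and Hoxd3 and Hoxb4 higher in experiment 2, with Hoxb8 nearly level in Input.

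Across the 20 genes the fitted difference and the paralog number had a Spearman correlation of -0.75. The same ratio taken within each group gave -0.72 for Input, -0.73 for LacZ, -0.70 for ODD and -0.58 for EVEN. Within the Hoxa cluster it was -0.77 (6 genes) and within the Hoxb cluster -0.74 (8 genes). These are correlations across genes, which share libraries and partly share reads, and they are given without a p. The share of Hox counts from genes numbered 6 to 9 was also summed by library, as a description. In experiment 1 it was 28.4% (Input), 28.4% (LacZ), 26.7% (ODD) and 26.8% (EVEN). In experiment 2 the shares were 20.9%, 18.5%, 19.2% and 20.0%, and the experiments did not overlap. The make-up of that difference was unlike in Input and the pull-downs. In Input genes numbered 1 to 5 summed to 714 and 978 CPM in experiments 1 and 2, and genes numbered 6 to 9 to 284 and 259. In LacZ the sums were 627 and 653 CPM for genes 1 to 5 and 248 and 149 for genes 6 to 9, in ODD 642 and 664 against 234 and 158, and in EVEN 649 and 691 against 238 and 173. The larger part of the difference thus lay in genes 1 to 5 in Input and in genes 6 to 9 in the pull-downs. The libraries of the experiments did not overlap for 5 genes (Hoxa6, Hoxa7, Hoxb4, Hoxb6 and Hoxd3), against 23.3% of all genes, which is close to the background.

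**Figure D4:**
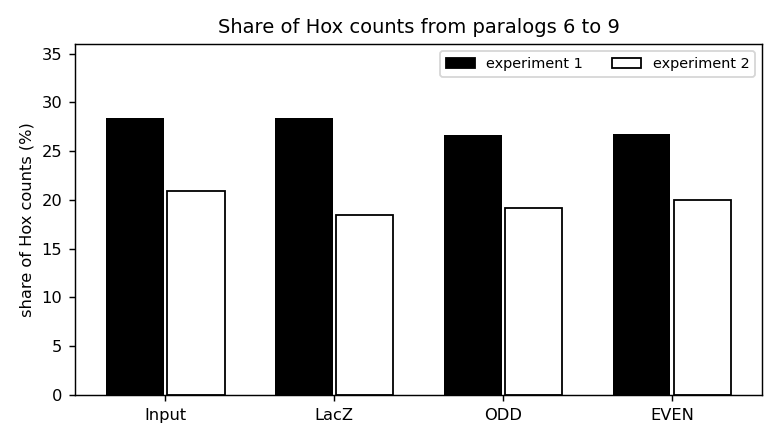
Share of all coding Hox counts that came from genes numbered 6 to 9 (y axis, percent, from 0) in each library. Filled bars are experiment 1 and open bars experiment 2; the 4 bars of experiment 1 lie between 26.7% and 28.4% and those of experiment 2 between 18.5% and 20.9%.

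The count of 9 genes depended on which libraries were used. With group as a term, a library left alone in its group carries no information on the experiment. Leaving out replicate 1 or replicate 2 of a group is thus nearly the same test, and their agreement is no separate support. Without LacZ replicate 1 or 2 it was 3 (Hoxa7, Hoxb6 and Hoxd3), against 14.5% of all genes. Without ODD replicate 1 or 2 it was 3 (Hoxa6, Hoxa7 and Hoxd3), against 12.7%, and without EVEN replicate 1 or 2 it was 3 (Hoxa7, Hoxb6 and Hoxd3), against 15.0%. Some lost calls kept differences of like size: without 1 of these libraries Hoxa4 was at 0.51 to 0.56 and Hoxb8 at -0.33 to -0.40. Without Input replicate 1 or 2 the count was 9, against 39% and 39.1% of all genes, and 8 of the genes were the same. Hoxa6 was then not called (adjusted p = 0.0576 and 0.0557), and Hoxa5, numbered 5, was called lower (log2 difference -0.36, adjusted p = 0.0302 and 0.0303), so the lower calls were then not only among numbers 6 to 9. With the 6 pull-down libraries alone Hoxa5 was also called lower (-0.37, adjusted p = 0.0248), 2 Hox genes were higher and 7 lower, and 41.1% of all genes passed. Libraries of 1 experiment may share 1 culture, so the test measures the spread of libraries, and culture and preparation cannot be told apart.

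Other cell type markers moved with the experiment, and their part in the Hox differences was not tested. The counts in the lists that follow stand against 27.4% of all genes called, 15.0% higher and 12.4% lower. Of 9 motor neuron markers, 7 were higher in experiment 2 and none was lower, led by the filament gene Prph (log2 difference 2.49, SE 0.117, adjusted p = 4.6e-05) and the choline transporter Slc5a7 (1.78, SE 0.0974, adjusted p = 7.33e-05). Their summed level was 94.4 to 107 FPKM in experiment 1 and 255 to 286 in experiment 2. Of 14 progenitor, interneuron and glial markers tested, 5 were higher and 5 lower, and the list sum was 457 to 614 FPKM in experiment 1 against 333 to 437 in experiment 2. The higher ones included Shh (log2 difference 0.54, SE 0.0813, adjusted p = 0.00327) and Foxa2 (0.81, SE 0.096, adjusted p = 0.00124), genes of the floor plate, and the interneuron gene En1 (1.06, SE 0.157, adjusted p = 0.00308). The lower ones included the glial gene Sox10 (-2.14, SE 0.0817, adjusted p = 2.49e-05) and the progenitor gene Olig2 (-1.39, SE 0.0808, adjusted p = 7.81e-05). Of 8 feeder fibroblast markers Twist1 was higher (0.98, adjusted p = 0.00588) and Pdgfra, Lum and Dcn were lower (-2.64, -1.68 and -1.01, adjusted p from 4.67e-05 to 0.00458), with sums of 27.3 to 44 FPKM against 19.1 to 26.0. Pdgfra made most of the gap between these sums, with 14.6, 9.67, 10.7 and 15.4 FPKM (Input, LacZ, ODD, EVEN) in experiment 1. In experiment 2 it had 1.78, 1.82, 2.01 and 2.49. The collagen genes Col1a1 (9.49 and 5.53 FPKM in Input) and Col3a1 (8.68 and 4.04) were among the highest of that list and did not pass.

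Apart from Foxa1, markers of other levels and germ layers were low. Of 10 hindbrain and forebrain markers 4 could be tested and 3 were higher in experiment 2, among them Tbx20 (log2 difference 1.60, SE 0.216, adjusted p = 0.00218) and Gbx2 (0.61, SE 0.138, adjusted p = 0.0174). The sum of that list was 6.49 to 9.37 FPKM in experiment 1 and 10.6 to 14.2 in experiment 2. Of 6 pluripotency and 6 mesoderm and endoderm markers 1 each could be tested, Esrrb and Foxa1, and both were higher (log2 differences 1.40 and 1.55, SE 0.2 and 0.0922, adjusted p = 0.00276 and 8.15e-05). The sums of these lists were 0.571 to 1.03 against 1.63 to 2.58 FPKM, and 4.37 to 5.54 against 11.2 to 17.4. Foxa1 alone made nearly all of the mesoderm and endoderm sum, with 5.31 and 17.2 FPKM in Input where the sum was 5.54 and 17.4. That sum thus follows 1 gene.

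Genes that act with or on the Hox genes moved in part. Of 9 cofactor genes, 4 were higher in experiment 2 and 1 was lower, where 27.4% of all genes were called. The higher ones included Pbx3 (log2 difference 0.69, SE 0.0786), Meis2 (0.60, SE 0.112) and Meis1 (0.48, SE 0.0871), and Pknox2 was the lower one (-0.36, SE 0.0872). Their adjusted p was between 0.00109 and 0.0206. Of 14 inducer and retinoid genes 10 could be tested and 3 were called, close to the 27.4% of all genes. The retinoic acid receptor Rarb (0.66, SE 0.0852, adjusted p = 0.00177) and the retinoic acid binding protein Crabp2 (1.48, SE 0.298, adjusted p = 0.0106) were higher, and the receptor Rxrg was lower (-0.50, SE 0.123, adjusted p = 0.0229). The highest of the list, the receptor Rara, had 29.7 and 28.9 FPKM in Input. Cdx1, Cdx2 and Cdx4, which encode the CDX factors, were at 0 counts in all 8 libraries.

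Of 19 Polycomb and trithorax genes, which regulate chromatin at the clusters, 4 were higher and 1 was lower in experiment 2, close to the 27.4% of all genes. The higher ones were Cbx7 (log2 difference 0.76, adjusted p = 0.00192), Ring1 (0.60, adjusted p = 0.0138), Kmt2b (0.42, adjusted p = 0.0179) and Phc1 (0.27, adjusted p = 0.0354), and Bmi1 was lower (-0.39, adjusted p = 0.0163). Rnf2, the catalytic subunit of Polycomb complex PRC1, was the highest of the list in Input with 34.8 and 34 FPKM, and it did not pass. Among 8 genes of motor columns and pools, which act downstream of or beside Hox genes, Runx1, Etv4, Pou3f1 and Foxp1 were higher (log2 differences 1.70, 1.16, 0.71 and 0.58, adjusted p from 0.000277 to 0.00662) and Mecom was lower (-1.11, adjusted p = 0.000928). The HOX accessory factor Foxp1 had 7.40 and 12.6 FPKM in Input.

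Noncoding genes inside the clusters and genes at their borders were also counted. Of 41 noncoding genes 24 were at 0 in all libraries and 9 could be tested. Hoxaas2, an antisense gene of the Hoxa cluster, had 7.74, 11.1, 10.8 and 10.8 CPM in experiment 1 and 20.5, 21.7, 19.8 and 20.6 in experiment 2 (log2 difference 1.05, SE 0.126, adjusted p = 0.00131). Its exons overlap those of Hoxa3 on the other strand. Hoxb5os had 5.72, 7.47, 7.87 and 9.55 CPM against 4.91, 1.91, 3.26 and 2.06 (log2 difference -1.28, SE 0.325, adjusted p = 0.025). Hoxb5 itself had a log2 difference of 0.34 and did not pass. Of 10 border genes tested, Skap2 beside the Hoxa cluster was higher (0.41, adjusted p = 0.00987) and Hibadh was lower (-0.47, adjusted p = 0.00553). These 2 of 10 border genes, like the 2 of 9 noncoding genes, are under the 27.4% of all genes called.

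The next question was whether any Hox RNA was enriched or depleted in the pull-downs. Most Hox genes were somewhat lower in the pull-downs than in Input, and none passed the test. Over the mean of ODD, EVEN and LacZ against Input, 17 of the 20 genes had a negative log2 difference, with a median of -0.40 against -0.02 for all genes. None of the 20 passed an adjusted p of 0.05 in edgeR's quasi-likelihood test, where 10.2% of all genes passed and 1.79% passed as lower. At an unadjusted p under 0.05 there were 8 Hox genes, against 24.4% of all genes. DESeq2 called 1 gene, Hoxc4 (log2 difference -0.52, SE 0.184, adjusted p = 0.0357), with 14.3% of all genes, and limma on log2(FPKM + 1) called none. Without the filter on low counts edgeR called 4, Hoxa3, Hoxa4, Hoxb5 and Hoxb8, with 10.3% of all genes.

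The labels pair the libraries by experiment, and a fit with the experiment as a block called more. In that fit 6 Hox genes were lower in the pull-downs, where 29.2% of all genes passed and 13.1% passed as lower. They were Hoxb8 (log2 difference -0.63, SE 0.128, adjusted p = 0.00941), Hoxb5 (-0.55, SE 0.124, adjusted p = 0.0148), Hoxc5 (-0.44, SE 0.104, adjusted p = 0.0173), Hoxa4 (-0.61, SE 0.154, adjusted p = 0.0222), Hoxa3 (-0.72, SE 0.182, adjusted p = 0.0227) and Hoxc4 (-0.51, SE 0.131, adjusted p = 0.0241). No Hox gene was called higher. The share lower is above that of all genes, and the share called in either direction, 6 of 20, is close to it.

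Single libraries show how far the groups separated. In Hoxb8 the pull-downs lay between 79.2 and 126 CPM and the Input libraries at 153 and 155. In Hoxc4 they lay between 58.7 and 72.3 CPM against 79.2 and 105, and in Hoxc5 between 36.7 and 41.7 against 45.0 and 61.7. For Hoxa3, Hoxa5, Hoxb2, Hoxb3, Hoxb5 and Hoxb7 too, all 6 pull-downs were below both Input libraries, which makes 9 genes, against 13.5% of all genes. In Hoxd4 alone all 6 were above both (8.26 to 11.8 CPM against 7.98 and 7.99), against 17.7% of all genes. Its fitted log2 difference of 0.27 (SE 0.204, adjusted p = 0.499) was the highest of the 20 genes, and that of Hoxa3, -0.78 (SE 0.264, adjusted p = 0.124), was the lowest. The 3 Hoxd genes tested, Hoxd3, Hoxd4 and Hoxd8, were the only ones with a positive fitted value, none of which passed.

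**Figure D5:**
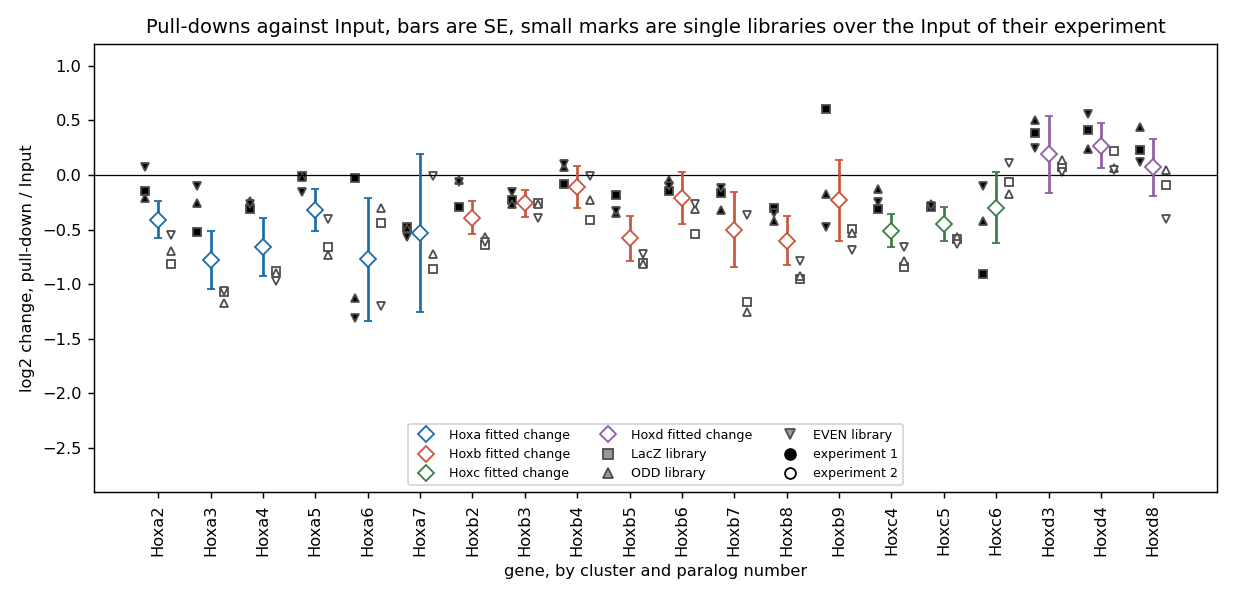
Log2 difference between pull-downs and Input (y axis) for the 20 Hox genes tested, by cluster and paralog number. Diamonds are the fitted difference with its SE from the fit without a block, and small marks are single pull-down libraries over the Input library of the same experiment; 17 of 20 diamonds lie below 0, and the 3 above it are Hoxd genes.

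The pull-down sets gave like values one by one, and they share the 2 Input libraries. None of the 20 genes passed in LacZ against Input (7.41% of all genes passed), in ODD against Input (6.84%) or in EVEN against Input (5.66%), and 3, 2 and 2 genes were at an unadjusted p under 0.05. DESeq2 called none in these 3 comparisons. The median log2 difference was -0.47 for LacZ, -0.39 for ODD and -0.32 for EVEN. With the experiment as a block, Hoxa3, Hoxb8 and Hoxc4 were lower with LacZ probes (adjusted p = 0.0478, 0.0322 and 0.0446), where 7.0% of all genes were lower. Hoxb5 and Hoxb8 were lower with ODD probes (adjusted p = 0.0352 and 0.0252), against 6.55% of all genes, and Hoxb8 and Hoxc5 with EVEN probes (adjusted p = 0.0443 and 0.0464), against 6.41%. Hoxa3 was also called for LacZ without the filter on low counts (7.51% of all genes) and with the block on only the groups compared (13.0%). In the latter fit Hoxb8 and Hoxc4 were not called for LacZ, and no Hox gene was called for ODD (11.8% of all genes) or EVEN (9.66%). In the fit with the block on all 8 libraries, Hox genes were thus called lower with the negative control probes too.

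The ratio of pull-downs to Input was lower in experiment 2 for most genes. In experiment 1 the mean pull-down level of Hoxa4 was 0.826 of Input, and in experiment 2 it was 0.531. Hoxa3 went from 0.821 to 0.467, Hoxb8 from 0.780 to 0.542 and Hoxc4 from 0.853 to 0.588. A test of this difference, chosen after the data were seen, gave negative values for 17 of 20 genes (median log2 -0.44, all genes -0.05). It called 1 gene with edgeR, Hoxa4 (-0.64, SE 0.148, adjusted p = 0.0408), where 6.86% of all genes passed. DESeq2 called Hoxa3 in its place (adjusted p = 0.0495, 8.01% of all genes), as did edgeR without the filter on low counts (adjusted p = 0.032, 4.43% of all genes). Each experiment has a single Input library, so the SE and p of this test measure only the spread of the pull-down libraries. The Input library of experiment 2 held the highest value of all 8 for every tested Hoxa, Hoxb and Hoxc gene numbered 2 to 5.

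Marker lists were set beside the pull-down comparison. Of 102 listed genes tested, 0 passed in the pull-downs against Input with edgeR's quasi-likelihood test, and 13 were at an unadjusted p under 0.05, 4 of them among the progenitor, interneuron and glial markers and 0 among the motor neuron markers. The summed motor neuron markers were at 102 to 266 FPKM in the pull-downs and 94.4 and 286 in Input, the progenitor, interneuron and glial markers at 333 to 479 against 614 and 437, and the feeder markers at 19.1 to 33.1 against 44 and 22.4. Their part in the Hox values was not tested.

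The last comparison, of the Lhx1os probes with the control probes, addressed whether Hox RNA came down with Lhx1os. No Hox gene was called in ODD against LacZ, EVEN against LacZ or the mean of both against LacZ. In each of these comparisons 0.0% of all genes passed with edgeR, and without the block 0 Hox genes were at an unadjusted p under 0.05. DESeq2 called 0 Hox genes (1, 13 and 2 genes overall). With ODD and EVEN averaged, 17 of the 20 genes were within 0.3 of 0 on the log2 scale. The most precise was Hoxb3 at -0.03 (SE 0.131), with Hoxc4 at 0.12 (SE 0.165) and Hoxb2 at 0.14 (SE 0.166). The 3 genes outside that range were Hoxa6 (-0.85, SE 0.681), Hoxb9 (-0.64, SE 0.398) and Hoxc6 (0.37, SE 0.375), with 124, 1147 and 396 counts over the 8 libraries. For Hoxb9 the LacZ libraries themselves were 19.2 and 7.39 CPM, a wider gap than between any of its ODD and EVEN libraries (6.46 to 11.2). The standard errors above come from the fit without the block, so the gap between the experiments enters them. With the block in edgeR, 0, 2 and 1 Hox genes were at an unadjusted p under 0.05, against 2.23%, 3.92% and 3.25% of all genes. None was called there either. Differences of the size of these standard errors, or somewhat larger, could not be seen in that fit without the block. The test does not show that the probe sets act alike.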

How the data were processed

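For each gene the authors deposited whole-number read counts, FPKM values and a length. Per the submitters' processing notes, cutadapt 3.2, Bowtie2 2.4.2, Picard and HTSeq 0.13.5 were used with GRCm38; the sources used here give no counting mode, strand setting or annotation. Lengths of all 38 genes were equal to GENCODE M21. One further gene matched by the symbol rule and some listed genes are not reported here. The genes, lists and tests were chosen with earlier results of these data known. All Hox genes are named; of other lists, the 3 highest in Input and those past the threshold (at most 4 a comparison) could be.

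Counts were tested in R 4.3.3 with edgeR 4.0.16 (TMM, filterByExpr by group, quasi-likelihood test, all 8 libraries, 16524 genes), with group as a term for the experiments. SE is the log2 difference over the root of F. Alternatives were a replicate block, DESeq2 1.42.0, limma 3.58.1 on log2(FPKM + 1), other size factors and filters, and leaving out each library. The labels' batch numbers pair the libraries; deviations from group means correlated with r from 0.534 to 0.765 over 6 pairs of groups. Replicates differed beyond sampling noise. On simulated data with 200 of 16524 genes changed by a log2 of 1, 98.5% were recovered between experiments (15 of 212 calls false). Between pull-downs and Input 91.5% were recovered (20 of 203 false), so false calls exceeded the nominal 5% level in both. The changed genes were drawn from the more abundant genes only. The pull-down simulation held no difference between experiments, and its spread was estimated with the experiment as a term. Recovery for low genes such as Hoxa6 and Hoxa7, or for pull-downs with such a difference, was not measured.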

Additional observations from a re-analysis of the deposited data

Results flagged for a closer look

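The pull-down against Input difference of Hoxa4 was unlike in the 2 experiments: the log2 difference was lower in experiment 2 by -0.64 (SE 0.148, adjusted p = 0.0408 in edgeR's quasi-likelihood test of that difference, with 6.86% of all genes past the threshold). In experiment 1 the Input library had 16.6 CPM and the pull-downs 13.4 to 14.1, and in experiment 2 the Input library had 32.0 and the pull-downs 16.3 to 17.4. All 3 pull-downs were below Input in both experiments. The test was chosen after the data were seen, and DESeq2 and edgeR without the filter called Hoxa3 instead. Resting on 1 Input library per experiment, the test measures only the spread of the pull-down libraries.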

How the results depend on the processing

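In the comparison of experiments 9 Hox genes were called, with 27.4% of all genes. The count was 9 with DESeq2 (25.4%) or total library size (27.3%), 10 with RLE size factors (27.9%) or no filter (17.1%) and 7 with limma (24.7%). With at least 50 counts in 2 libraries it was 7 (29.8%), 4 higher and 3 lower, where Hoxa6 and Hoxa7 were not tested. It was 3 to 9 when 1 library was left out, with 12.7% to 39.1% of all genes. None of the 9 genes changed direction under these alternatives; the direction of the other Hox genes was not followed. For pull-downs against Input, where 0 were called, the count was 6 with the replicate block, 4 without the filter and 1 with DESeq2. For LacZ against Input it was 3 with the replicate block, 1 with the block on only the groups compared, an alternative chosen after seeing the data, and 1 without the filter. For ODD and for EVEN against Input it was 2 each with the replicate block and 0 with the block on only the groups compared; the cause was not tested. The block changed no other count of calls. Comparisons with LacZ gave 0 under every alternative run. The 2 libraries per group limit what could be seen for genes of a few counts, such as Hoxa6 and Hoxa7.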
